A study of Rattus norvegicus with 19 samples.

Results

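Brain-derived neurotrophic factor (Bdnf, ENSRNOG00000047466) and its receptor TrkB (Ntrk2, ENSRNOG00000018839) were described across strain and sex in the paraventricular nucleus (PVN) of the hypothalamus. They are 2 of the 30560 genes in the count table and were taken by their Ensembl identifiers. The libraries came from bilateral PVN punches of male rats (5 SHR, 4 Wistar) and female rats (5 of either strain), all aged 14 weeks, and held polyadenylated RNA. SHR is an inbred strain in which hypertension develops without treatment. The Wistar rats served as normotensive controls, so strain background and hypertension cannot be told apart. By the study's methods the rats had carried an implanted telemetry probe for blood pressure, and females were recorded in dioestrus. The comparisons asked whether the ligand and its receptor differed between the strains within each sex, between the sexes within each strain, and whether the strain effect depended on sex. The study itself singled out Bdnf from these libraries, so the tests of Bdnf are not independent evidence of its direction.

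Bdnf is a secreted neurotrophin, made as a precursor in neurons and cleaved to the mature factor. It binds TrkB, a receptor tyrosine kinase that signals through the MAP kinase, PI3 kinase and phospholipase C gamma pathways and supports the growth and strengthening of synapses. Ntrk2 also gives rise to a truncated receptor without the kinase domain, which is abundant in astrocytes. In the PVN, BDNF is known to raise sympathetic tone and blood pressure when supplied in excess. Values per gene add up all transcripts, so full-length and truncated TrkB were not separated.

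Bdnf transcripts begin at several promoters that lie far apart and respond to different signals, among them promoters driven by neuronal activity through the factor CREB. RefSeq lists 11 transcripts of Bdnf and 14 of Ntrk2. The promoter table of RefSeq (build GRCr8) holds 6 Bdnf windows, whose starts span 20225 bases, and none for Ntrk2. Below are the 250 bases before the first of these starts and before the start at a distance of 18225 bases. The second of these is the only window of the 6 that holds the half-site marked below. A change at any of the 6 starts would enter the same Bdnf count. Capitals mark a half-site of the cAMP response element, the sequence that CREB binds.
Bdnf start 1, chr3:116619383-116619632, plus strand: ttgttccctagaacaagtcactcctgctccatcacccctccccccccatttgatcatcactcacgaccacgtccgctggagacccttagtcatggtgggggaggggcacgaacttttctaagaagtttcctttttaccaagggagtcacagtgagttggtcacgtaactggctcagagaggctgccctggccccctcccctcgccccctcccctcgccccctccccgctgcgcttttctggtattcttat
Bdnf start 4, chr3:116637608-116637857, plus strand: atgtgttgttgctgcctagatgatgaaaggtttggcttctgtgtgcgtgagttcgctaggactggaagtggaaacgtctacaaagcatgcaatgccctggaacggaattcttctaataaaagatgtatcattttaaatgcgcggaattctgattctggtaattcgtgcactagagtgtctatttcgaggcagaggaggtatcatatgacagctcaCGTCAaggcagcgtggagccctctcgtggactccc
The half-site (TGACG, either strand) was present in 1 of the 6 Bdnf windows and in 18.2% of the 33469 windows in the table. The full element (TGACGTCA), which contains the half-site, was in 0 of the 6 windows and in 1.59% of all windows. An E-box (CACGTG), the site of USF and related factors, was in 0 of the 6 and in 5.59% of all windows. Only exact matches were counted, and the bases at the marked half-site differ from the full element by 1 letter. A count of 0 therefore does not mean that variants of these sites are absent. The last 2 of the 6 windows overlap each other. Which of these starts was used in the PVN cannot be read from the counts.

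Library totals ranged from 44943945 to 58793511 counts. Bdnf had between 484 and 1028 counts per library and Ntrk2 between 32337 and 50617, so both passed the filter on low counts in every comparison. Counting error alone gives a relative error between 3.12% and 4.55% for Bdnf and between 0.444% and 0.556% for Ntrk2. Of the deposited values from 1 to 100, 73.9% were even, and if both reads of a pair were counted the error for Bdnf would be between 4.41% and 6.43%. Levels are given as CPM, counts relative to the library total after TMM scaling, a correction for composition. They are compared between libraries only, since CPM is not adjusted for gene length. The other genes of the neurotrophin system, cell type markers and PVN markers could not be identified, because neither the table nor the gene list used here pairs Ensembl identifiers with symbols.

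Bdnf was highest in SHR males. In Wistar males it stood at 14.4, 11.5, 15.1 and 11.7 CPM in replicates 2 to 5, with a mean of 13.2 ± 1.85 CPM (SD, n = 4). In SHR males it stood at 17.9, 18.4, 16.2, 16.6 and 18.6 CPM in replicates 1 to 5, with a mean of 17.6 ± 1.08 CPM (SD, n = 5). Every SHR male lay above every Wistar male, with 16.2 CPM as the lowest SHR male and 15.1 CPM as the highest Wistar male. In Wistar females the values were 20.5, 12.7, 15.1, 12.1 and 9.56 CPM in replicates 1 to 5, with a mean of 14.01 ± 4.15 CPM (SD, n = 5). These females spanned the widest range, and replicate 1 was the highest of all 19 libraries and replicate 5 the lowest. In SHR females the values were 15.7, 13.1, 12.3, 14.6 and 12.2 CPM in replicates 1 to 5, with a mean of 13.6 ± 1.52 CPM (SD, n = 5). All of them lay below every SHR male and inside the range of the Wistar females.

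By mean, the order was SHR males, Wistar females, SHR females and Wistar males. SHR males and Wistar females overlapped, through the 1 Wistar female at 20.5 CPM. The ranges of the 3 lower groups overlapped one another. The coefficient of variation between libraries of a group was 29.7% in Wistar females, 14.05% in Wistar males, 11.2% in SHR females and 6.16% in SHR males, in each case above the counting error.

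**Figure D1:**
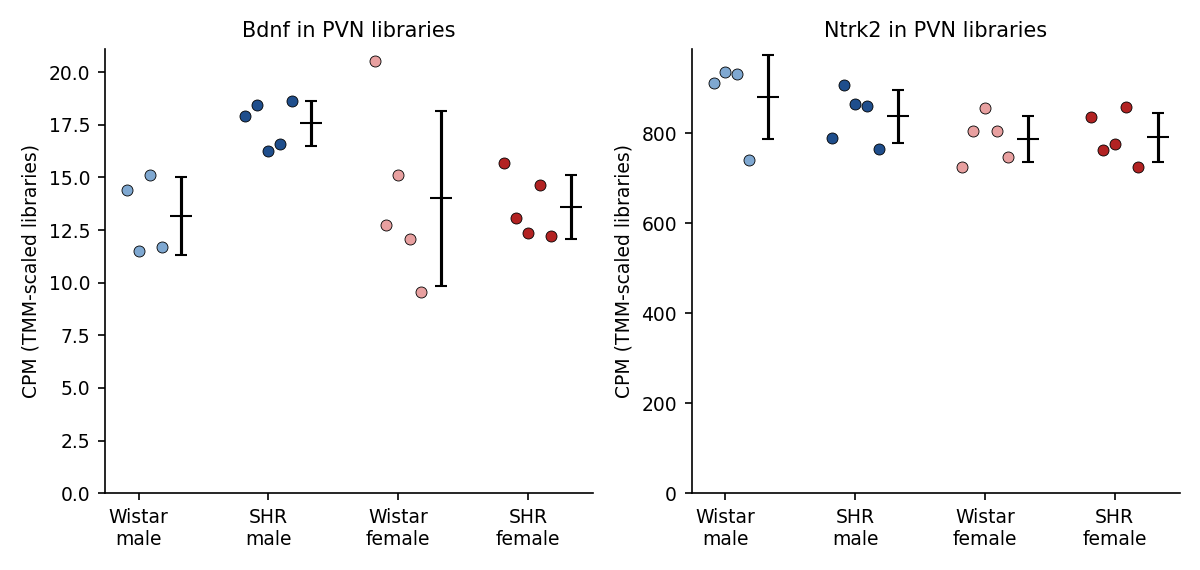
Levels of Bdnf (left) and Ntrk2 (right) in CPM of TMM-scaled libraries, 1 point per library with replicates 1 to 5 from left to right, and the bar at the right of each group giving the mean ± SD. The 5 SHR males sit between 16.2 and 18.6 CPM of Bdnf, above all Wistar males and all SHR females, while the Ntrk2 groups overlap.

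Ntrk2 varied less. In Wistar males it stood at 913, 937, 931 and 740.4 CPM in replicates 2 to 5, with a mean of 880.4 ± 93.9 CPM (SD, n = 4). Replicate 5 was well below the other Wistar males. In SHR males the values were 790.2, 908, 864, 860.5 and 764 CPM in replicates 1 to 5, with a mean of 837 ± 58.8 CPM (SD, n = 5). They fell within the range of the Wistar males. In Wistar females the values were 725, 804, 856, 806 and 748 CPM, with a mean of 788 ± 51.7 CPM (SD, n = 5). In SHR females they were 835, 764, 776, 858 and 725 CPM, with a mean of 792 ± 54.4 CPM (SD, n = 5). Both female groups covered nearly the same range. The mean order was Wistar males, SHR males, SHR females and Wistar females, and neighbours in this order overlapped. Across the 19 libraries the highest Ntrk2 value was 1.29 times the lowest, against 2.15 times for Bdnf.

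Between the male groups, Bdnf rose in SHR by 1.33-fold (95% interval from 1.15 to 1.54). The log2 fold change was 0.41 (standard error 0.10), and the edgeR quasi-likelihood test over 17461 genes gave an adjusted p = 0.0175. In this comparison 12% of the genes tested were called, and 14.5% of genes had groups that did not overlap in CPM, so both were common in the male comparison. The size of the Bdnf change was exceeded by 19.2% of the genes tested, whose median size was 0.15 on the log2 scale. Each of the 9 fits that left out 1 library kept the call, with adjusted p-values from 0.0118 to 0.0483. The DESeq2 Wald test, which called 2979 genes in this comparison, gave a log2 fold change of 0.42 and an adjusted p = 0.000949. With all 4 groups in 1 edgeR fit, which takes the spread of the females into the test, the log2 fold change was the same 0.41. The adjusted p of that edgeR fit was 0.105, so the call was lost. Punches hold many cell types, and more cells that make Bdnf cannot be told apart from more Bdnf RNA per cell.

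Ntrk2 in the same comparison had a log2 fold change of -0.07 (standard error 0.08), with an adjusted p = 0.578 from edgeR. The 95% interval of its fold, from 0.845 to 1.07, leaves room for a modest difference in either direction. Without Wistar male replicate 5, the low library, the log2 fold change was -0.14, with an unadjusted p = 0.0417 and an adjusted p = 0.178 from edgeR.

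Between the female groups, neither gene passed the test. The log2 fold change of Bdnf in SHR females against Wistar females was -0.05 (standard error 0.18), with an adjusted p = 0.905 from edgeR over 17404 genes, of which 2.32% were called. Groups of neither member were separate in CPM, as those of 5.24% of genes were. The fold had a 95% interval from 0.737 to 1.26. Its direction hung on a single library, since without Wistar female replicate 1 the log2 fold change was 0.13, and without Wistar female replicate 5 it was -0.15. Ntrk2 had a log2 fold change of -0.00073 (standard error 0.07), with an adjusted p = 0.997 from edgeR and an interval of the fold from 0.900 to 1.11. By size of change, 99.7% of the genes tested exceeded Ntrk2 in the female comparison.

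**Figure D2:**
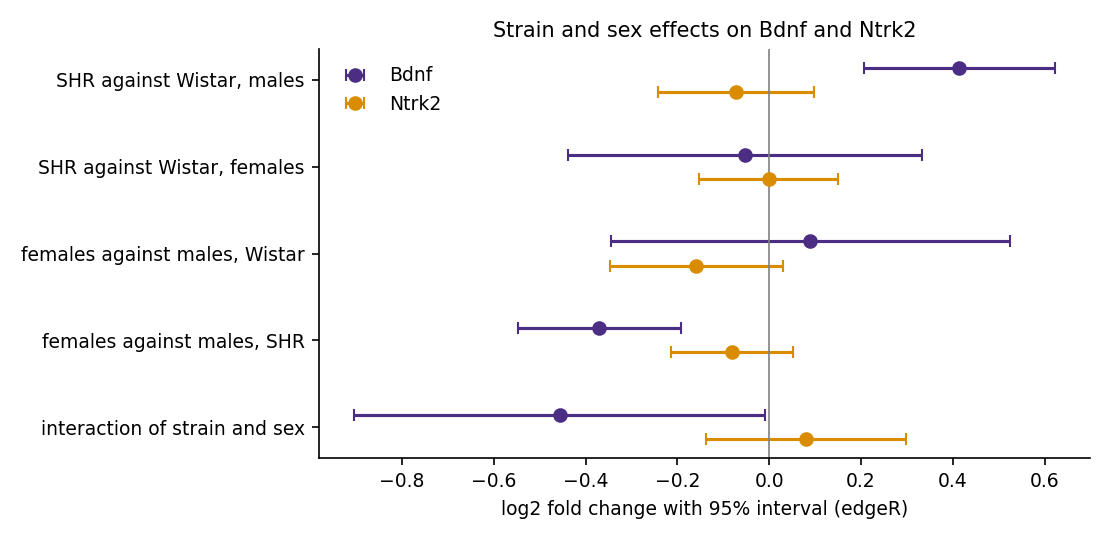
Log2 fold changes of Bdnf and Ntrk2 with their 95% intervals from edgeR, for the strain effect in each sex, the sex effect in each strain and their interaction. The intervals of Bdnf lie above 0 for strain in males and below 0 for sex in SHR and for the interaction (-0.90 to -0.0087), and those of Ntrk2 include 0 in all 5 comparisons.

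Between the sexes, Bdnf in SHR was 0.773-fold in females against males (95% interval from 0.684 to 0.875), a log2 fold change of -0.37 (standard error 0.08). The groups did not overlap, as was so for 3.11% of genes. The unadjusted p was 0.000578, which 63 of 17285 genes undercut, but the adjusted p = 0.154 from edgeR missed the threshold that 0.0694% of genes passed. The call depended on the tool, since the DESeq2 Wald test gave a log2 fold change of -0.37 and an adjusted p = 0.00719. DESeq2 called 303 genes in this comparison, 1.75% of those tested, against 12 with edgeR. With edgeR, leaving out 1 library at a time gave adjusted p-values from 0.102 to 0.312. The same 5 SHR males enter this comparison and the strain comparison in males, so these results are not independent of each other. In Wistar, Bdnf had a log2 fold change of 0.09 in females against males (standard error 0.20, adjusted p = 0.941 from edgeR), and 0.0629% of 17490 genes were called. The groups overlapped, while those of 1.49% of genes did not. Without Wistar female replicate 1 it was -0.09.

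Ntrk2 was lower in females by point estimate in both strains, and neither difference passed the test. With edgeR, females minus males came to -0.16 log2 units in Wistar (adjusted p = 0.909, standard error 0.09) and -0.08 in SHR (adjusted p = 0.558, standard error 0.06). In Wistar, leaving out male replicate 5 moved it to -0.23, with an unadjusted p = 0.00871 and an adjusted p that rounded to 1.00.

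**Figure D3:**
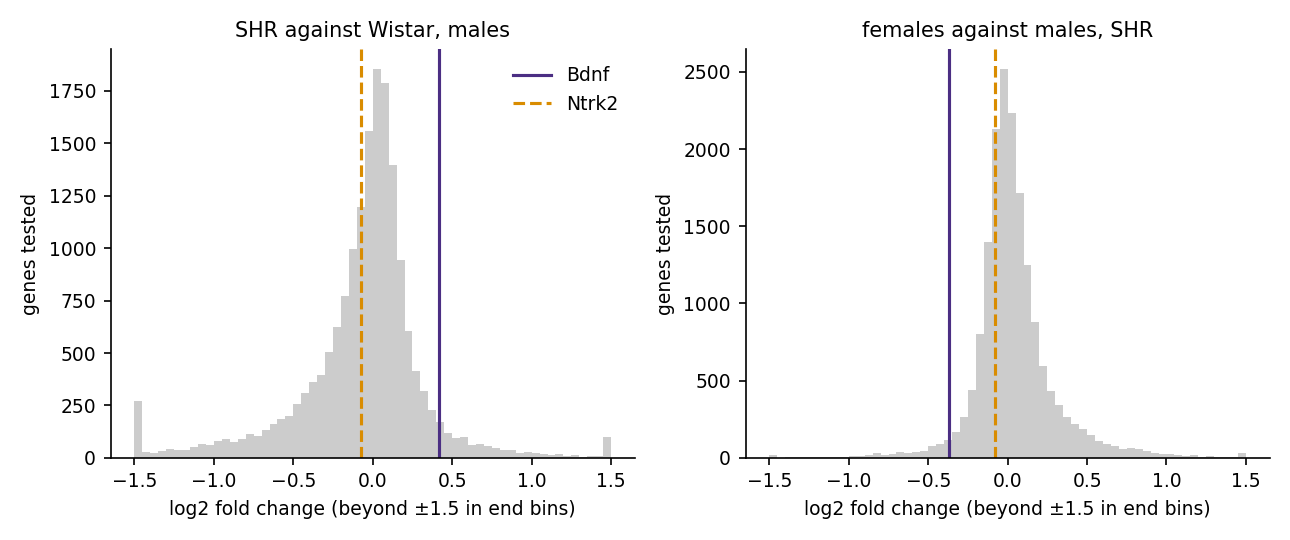
Numbers of genes tested by log2 fold change, for strain in males (left) and sex in SHR (right), with lines at Bdnf and Ntrk2 and genes beyond ±1.5 gathered in the end bins. Bdnf lies at 0.41 and -0.37, out on the shoulder of each distribution, and Ntrk2 at -0.07 and -0.08, near its centre.

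Whether the strain effect on Bdnf differed between males and females was tested as the interaction in a fit of all 19 libraries. The interaction was -0.46 on the log2 scale (standard error 0.21, 95% interval from -0.90 to -0.0087), negative because the strain effect was smaller in females. Its unadjusted p was 0.0461 and its adjusted p = 0.367 from edgeR over 17432 genes, of which 0 were called with edgeR, 2332 had an unadjusted p under 0.05, and 48 were called with DESeq2. A difference between the sexes in the strain effect on Bdnf was therefore not shown after adjustment. The interaction moved most with the Wistar females, to -0.29 without Wistar female replicate 1 (unadjusted p = 0.102) and to -0.58 without Wistar female replicate 5 (unadjusted p = 0.00652, adjusted p = 0.0990). For Ntrk2 the interaction was 0.08 (standard error 0.10, adjusted p = 0.735 from edgeR).

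**Figure D4:**
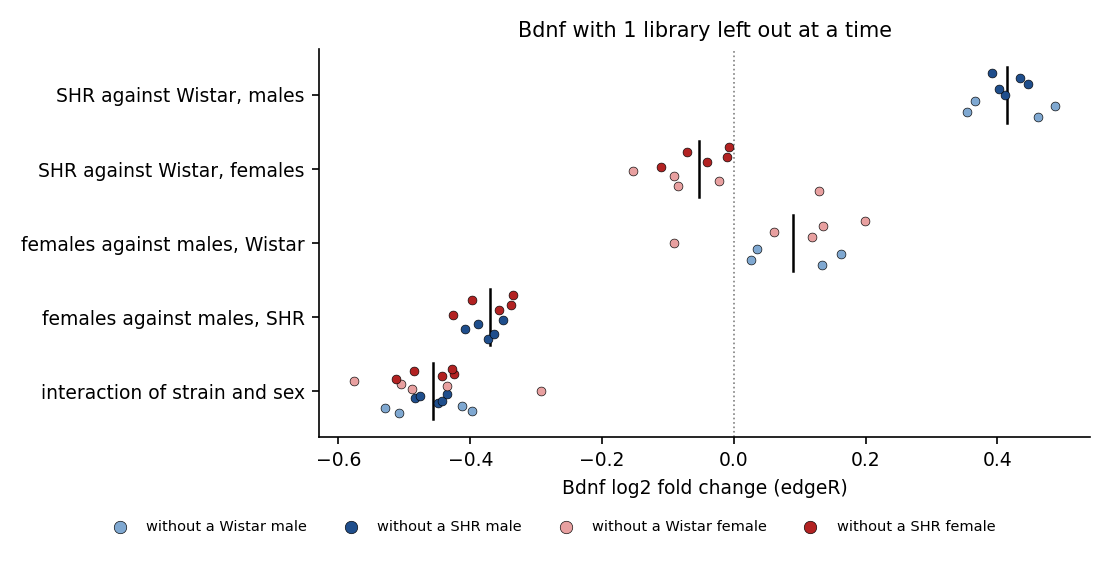
Bdnf log2 fold change from edgeR with 1 library left out at a time (points, coloured by the group that lost a library) beside the value from all libraries (vertical line), for 5 comparisons. Strain in males stays between 0.35 and 0.49 and sex in SHR between -0.43 and -0.34, while strain in females and sex in Wistar cross 0 without Wistar female replicate 1.

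The 2 genes were also set against each other within each library, as the number of Ntrk2 counts per Bdnf count. This ratio does not depend on library scaling, and it reflects gene length as well as RNA level, so it was compared between libraries only and, as a value over members chosen with results known, was given no test. In Wistar males it was 63.4, 81.4, 61.5 and 63.3 in replicates 2 to 5. In SHR males it was 44.1, 49.2, 53.2, 51.8 and 41.0 in replicates 1 to 5. By mean, the SHR males had the fewest receptor counts per ligand count, at 47.9 ± 5.17 (SD, n = 5). The Wistar males had 67.4 ± 9.39 (SD, n = 4), and the male groups did not overlap. The same Bdnf counts enter this ratio and the Bdnf level, so it is not independent of the rise of Bdnf in SHR males. How often ratios of other gene pairs separate these groups was not computed. In Wistar females it was 35.3, 63.2, 56.6, 66.6 and 78.2, with a mean of 60.0 ± 15.9 (SD, n = 5). In SHR females it was 53.3, 58.4, 62.9, 58.6 and 59.3, with a mean of 58.5 ± 3.44 (SD, n = 5). The SHR female at 53.253 and the SHR male at 53.201 were almost level, so the separation of the sexes in SHR by this ratio was slight. As a log2 difference, the Bdnf to Ntrk2 ratio was 0.49 higher in SHR than in Wistar males and 0.29 lower in SHR females than in SHR males. In Wistar it was 0.21 higher in females than in males, and 0.027 higher without Wistar female replicate 1. Between the female groups the log2 difference was -0.0098, and 0.17 without that library.

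**Figure D5:**
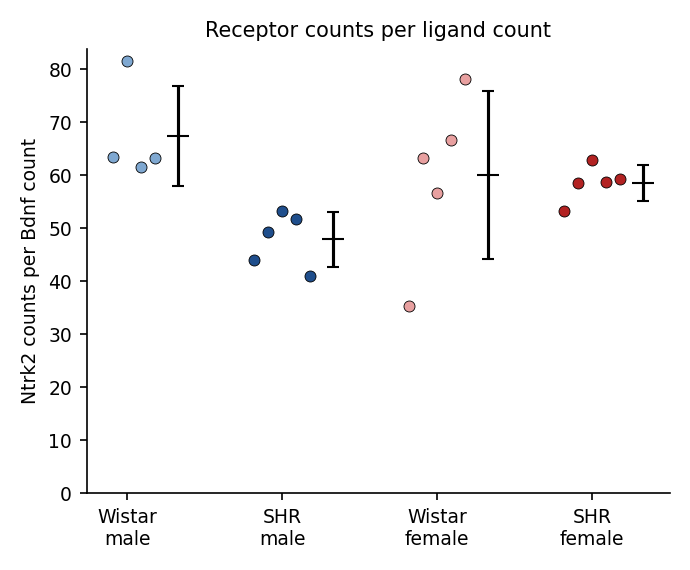
Ntrk2 counts per Bdnf count in each library (points, replicates 1 to 5 from left to right) with the mean ± SD at the right of each group. SHR males lie between 41.0 and 53.2, below all Wistar males, and the lowest library of all is Wistar female replicate 1 at 35.3.

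Within groups, no joint movement of ligand and receptor was detected over all 19 libraries. With the group mean subtracted from log2 CPM, Bdnf and Ntrk2 had Pearson's r = 0.155 (permutation p = 0.544) and Spearman's rho = 0.310 (permutation p = 0.247) over 19 libraries. It was the 1 relation of this kind that was tested. Labels were shuffled within groups 100000 times, two-sided. Without the 2 libraries farthest from the median of Ntrk2, Wistar male replicate 5 and SHR male replicate 5, r was 0.0948. Wistar female replicate 1, farthest from its group mean in Bdnf, deviated by 0.60 in Bdnf and by -0.12 in Ntrk2. The correlation without this library was not computed, so a relation that it masks cannot be told from none.

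The likeness of other genes to each member was described over the 14441 genes that averaged more than 50 normalized counts. Over the 19 libraries, 62 genes had a Pearson correlation above 0.8 with Bdnf in log2 CPM, 50 had one below -0.8, and the highest was 0.913, for ENSRNOG00000002032. For Ntrk2 there were 4 and 2 such genes, and the highest was 0.859, for ENSRNOG00000013770. The points of these correlations share library scaling and group differences, and the leading genes are given by identifier because no symbols could be matched. With group means removed, 127 genes were above 0.8 and 123 below -0.8 with Bdnf, and 25 were above and 40 below with Ntrk2. In Bdnf, Wistar female replicates 1 and 5 lay farthest from their group mean, at 0.60 and -0.50 log2 units. How far the counts of genes for Bdnf rest on these libraries was not tested, since correlations without them were not computed.

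RefSeq places no other gene over Bdnf, and 7 long non-coding RNA genes overlap the span of Ntrk2 in GRCr8. The kit keeps strand, but whether the counting used it is not given in the sources used here. Whole gene spans were compared and not exons, so whether reads of these genes entered the Ntrk2 count cannot be told.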

How the data were processed

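RNA from PVN punches of 19 rats was sequenced from stranded, poly(A)-enriched libraries. The authors trimmed reads with Trimmomatic, aligned them to Rn7 with STAR and counted them per gene with featureCounts. The deposited values are these raw counts, without normalization. The versions of these 3 tools, the gene annotation used for counting and the strand and pair settings of counting are not given in the sources used here. All 19 columns were used, and groups and replicate numbers were taken from the labels.

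Genes with a mean above 5 median-of-ratios normalized counts over the libraries of a fit were tested with edgeR 4.0.16 in R 4.3.3 (quasi-likelihood test, TMM scaling, Benjamini-Hochberg adjustment over all genes tested, threshold 0.05), with only the groups compared in each fit and all 4 groups for the interaction. Intervals are at 95% and use the test's standard error. DESeq2 was the tool the authors used for testing, with Bonferroni correction by their methods. Its release 1.42.0 was run here as the alternative, with Benjamini-Hochberg adjustment. That run called 2979 genes for strain in males, 1097 for strain in females and 303 for sex in SHR. The edgeR test with Bonferroni adjustment called 87, 40 and 10. The study's numbers of differentially expressed genes in these comparisons lie close to those from DESeq2 and far above those from Bonferroni adjustment. Which adjustment gave the study's lists was not tested, since DESeq2 was not run with Bonferroni adjustment. The edgeR and DESeq2 tests were tried on simulated counts for strain in males and for sex in SHR. The interaction, the replicate block, the covariate and the correlation were not simulated. Plots and other values came from Python 3.11.15 with scipy 1.17.1 and matplotlib 3.10.9.

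The alternatives were DESeq2, Bonferroni adjustment, DESeq2 size factors, filterByExpr, no filter, 1 fit of all 4 groups, a replicate block, the number as a covariate, counts divided by 2, total counts in place of TMM (added after seeing the data) and each library left out. The members and lists were chosen with earlier results of these data known. Lists of neurotrophin genes, cell type markers and most alike genes by symbol were left out, since 0 of the 47357 genes in the RefSeq table carry an Ensembl identifier. The permutation test of the ligand to receptor ratio that had been planned was not used, because the ratio is a score over these members. Genes to be named were both members, list genes matched by symbol and the most alike genes with a symbol. Without symbols, the 1 most alike identifier per member was given instead, chosen after its value was seen.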

Additional observations from a re-analysis of the deposited data

Results flagged for a closer look

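Of 12 groups examined over the Bdnf level, the Ntrk2 level and their ratio, 2 held a library far from the others of its group, and chance alone flags about 1 in 20 groups. Wistar male replicate 5 had 740.4 CPM of Ntrk2 and stood apart from the other 3 Wistar males, with a gap of 0.876 of the range of the group. Wistar male replicate 3 had 81.4 Ntrk2 counts per Bdnf count, with a gap of 0.904 of the range, and its Bdnf level of 11.5 CPM was close to that of Wistar male replicate 5.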

How the results depend on the processing

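The rise of Bdnf in SHR males kept its direction under all 10 alternatives and in all 9 fits without 1 library (log2 fold change from 0.35 to 0.49). Its call was lost with Bonferroni adjustment of the edgeR test (0.41, adjusted p = 1) and with all 4 groups in 1 edgeR fit (0.41, adjusted p = 0.105). With DESeq2, the study's tool, Bonferroni was not run. Bdnf in SHR females against SHR males was called by DESeq2 only (-0.37, adjusted p = 0.00719) and lay between -0.43 and -0.34 in fits without 1 library. The interaction for Bdnf lay between -0.58 and -0.29 without 1 library. For strain in females, Bdnf lay between -0.15 and 0.13 without 1 library. For sex in Wistar it lay between -0.091 and 0.20, and its sign turned with the replicate block (-0.10) and with the number as a covariate (-0.037). Ntrk2 was not called in any fit. Its strain effect in females, near 0, turned positive with DESeq2 (0.0040), DESeq2 size factors (0.0041), filterByExpr (0.0061), no filter (0.0063), all 4 groups (0.0074), halved counts (0.0065) and total counts (0.026), and lay between -0.026 and 0.036 without 1 library. The other Ntrk2 ranges without 1 library were -0.14 to -0.04 for strain in males, -0.23 to -0.13 for sex in Wistar, -0.11 to -0.05 for sex in SHR and 0.04 to 0.15 for the interaction. Counted as Ntrk2 per Bdnf count in place of a log2 ratio, SHR minus Wistar females was -1.48, against a log2 Bdnf to Ntrk2 difference of -0.0098. Without 1 library, the log2 ratio lay between 0.40 and 0.53 for strain in males, -0.12 and 0.17 for strain in females, 0.027 and 0.31 for sex in Wistar and -0.33 and -0.24 for sex in SHR. The causes were not tested.

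Of 18 pairs with the same replicate number, 4 had deviations correlated above 0.1 (from -0.169 to 0.333). The replicate block changed no call of the members (Bdnf in males, adjusted p = 0.0305) and moved interaction genes from 0 to 32.

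Numbers of genes called moved by over 1.5 times. From 2102 for strain in males they went to 87 with Bonferroni adjustment and to 1203, 1377 and 1397 without SHR male replicate 3, SHR male replicate 1 and Wistar male replicate 3. From 403 for strain in females they went to 1097 with DESeq2, 1104 with all 4 groups, 835 with the covariate, 40 with Bonferroni adjustment and 174 to 811 without 1 library. From 11 for sex in Wistar they went to 20 with DESeq2. From 12 for sex in SHR they went to 303 with DESeq2 and 24 with the covariate. From 0 for the interaction they went to 48 with DESeq2 and up to 3 without 1 library. Alternatives planned for gene lists were not run.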
